A study of Mus musculus with 18 samples.

Results

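The nuclear-encoded subunits of oxidative phosphorylation were followed in group 2 innate lymphoid cells (ILC2), tissue lymphocytes without rearranged antigen receptors that secrete type 2 cytokines. Genes were chosen by symbol (Nduf, Sdh, Uqcr, Cox4 to Cox8 and Atp5 genes, leaving out the Ndufaf assembly factors). Of the 24781 entries in the count table, 83 symbols matched, and the 73 with at least 60 counts summed over the 18 libraries are described here. By complex these were 34 genes of complex I, 4 of complex II, 8 of complex III, 12 of complex IV and 15 of complex V. Genes were placed by symbol except for Ndufa4, which was counted with complex IV. Ndufa9, with 70 summed counts, and Ndufa10, with 73, lay just above the minimum, and Ndufs5, with 49, lay just below it. The other 9 that fell short were Atp5s with 17 counts, Cox6b2 with 4, Cox4i2 and Cox7a1 with 1 each, and Cox6a2, Cox7b2, Cox8b, Cox8c and Ndufa4l2 with 0. All 73 genes are protein coding in GENCODE M21, and 3 lie on the X chromosome. After removal of genes with low counts, 48 of the 73 could be tested, among 1916 genes tested in all. These were 13 of 34 genes of complex I, 2 of 4 of complex II, 6 of 8 of complex III, and every listed gene of complexes IV and V.

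Cells of 3 populations were sorted: mature ILC2 and immature ILC2 (a progenitor stage) of the bone marrow, and ILC2 of the lung. Control mice are labelled Rag2 KO, and CD45KO mice are labelled CD45 KO x Rag2 KO, so that all mice lacked Rag2 and with it T and B cells. CD45, encoded by Ptprc, is a receptor tyrosine phosphatase that acts on Src-family kinases. Each of the 6 groups had 3 libraries, cells were taken from the tissue by sorting without further treatment, and their age is not stated. The labels do not say that the 3 libraries of a group came from separate animals, so p-values measure the spread between these libraries, which may be technical.

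Oxidative phosphorylation makes ATP in the inner mitochondrial membrane. Complexes I and II pass electrons from NADH and succinate to ubiquinone, complex III passes them on to cytochrome c and complex IV to oxygen, and complex V, the ATP synthase, uses the resulting proton gradient. Every complex except complex II also holds subunits encoded by mitochondrial DNA, which were not analysed here. The nuclear genes are spread over the chromosomes, and the transcription factors NRF1, GABP and YY1 are known to act on many of them. Lymphocytes use oxidative phosphorylation beside glycolysis, and the balance shifts with their activation.

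Library totals ran from 68077 to 122250 counts, so that 3 counts corresponded to between 25.3 and 44.7 normalised CPM, the unit of all levels below, in which each count is divided by a library size scaled by TMM. Levels are not corrected for transcript length. Ptprc was lower in every CD45KO group. Its controls spanned 253 to 541 normalised CPM in mature, 342 to 464 in immature and 546 to 628 in lung cells, and its CD45KO libraries spanned 87.98 to 238, 42.0 to 139 and 112 to 229. ILC2 markers summed to 4516 to 13780 normalised CPM in all libraries, highest in lung, while B cell and T cell markers had at most 4 and 6 counts in any library. Mature control replicate 1 held 142 counts of the neutrophil genes S100a8 and S100a9 with 0 of Lyz2, against at most 12 myeloid counts in any other library. Mature CD45KO replicate 1 differed most from the other 2 libraries of its group (chi-square per degree of freedom over genes 3.45 and 3.66). Results that involve mature ILC2 were therefore also computed without these 2 libraries together, an alternative chosen after seeing the data. Their part in the results was not tested beyond that.

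Promoter windows of 300 bases (250 before to 50 after the transcription start, RefSeq, GRCm38.p6) were found for 61 of the 73 genes, in 66 windows, and were searched on both strands for 4 short motifs. Matches of different motifs, and of a motif on opposite strands, could share bases. The NRF1 letters GCATGCGC were present in 15.2% of the subunit windows and in 2.71% of all 32851 windows of the table. The ETS letters CCGGAAG, which GABP recognises, were present in 24.2% against 8.86%, and the YY1 letters AAGATGGCG in 10.6% against 1.40%. The Sp1 letters GGGCGG were present in 37.9% against 35.7%. By complex, the NRF1 letters were found in 3 of 32 windows of complex I, 1 of 3 of complex II, 2 of 5 of complex III, 1 of 10 of complex IV and 3 of 16 of complex V. These are matches of letters and not measured binding. In 5 subunit promoters from complexes I, III, IV and V, the NRF1 letters occurred on both strands at once as a 10-base palindrome, shown here in capitals within 30 bases of the sense strand as a stretch shared across complexes. Of the 6 genes that passed in a tissue comparison below, Atp5k and Cox6a1 hold the NRF1 and the ETS letters, and Cox6a1 also the Sp1 letters. Atp5j2 holds only the YY1 letters, Ndufa3 only the Sp1 letters, and Atp5c1 and Atp5g3 none of the 4 motifs. The stretches lie at chr17:56717692-56717721, chr9:108936668-108936697, chr5:115349101-115349130, chr5:108434430-108434459 and chr15:102671070-102671099 in the order of the lines.
Ndufa11 (complex I): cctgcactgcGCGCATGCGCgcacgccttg
Uqcrc1 (complex III): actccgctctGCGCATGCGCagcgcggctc
Cox6a1 (complex IV): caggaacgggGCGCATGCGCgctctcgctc
Atp5k (complex V): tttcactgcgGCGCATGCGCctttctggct
Atp5g2 (complex V): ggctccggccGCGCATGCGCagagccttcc

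The ETS letters stood in the promoters of Uqcrh (chr4:116075062-116075091) and Atp5e (chr2:174464185-174464214), the 2 genes with the smallest p in immature CD45KO cells. These 2 genes were picked after their p was known, and neither passed. Uqcr11 also held the letters. Uqcr10, Ndufa13, Ndufb11, Ndufv3 and Cox7b, likewise wholly higher in those cells than in controls, did not. A link of the letters to CD45 was not tested. The letters are in capitals here as read on the sense strand.
Uqcrh: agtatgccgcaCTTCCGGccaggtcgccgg
Atp5e: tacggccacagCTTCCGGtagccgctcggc

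Ndufa3, the only subunit gene that passed the test over all 6 groups, had none of the NRF1, ETS or YY1 letters in its window, and a single Sp1 match. Its 250 bases before the start (plus strand, chr7:3617123-3617372) are given with that match in capitals.
Ndufa3: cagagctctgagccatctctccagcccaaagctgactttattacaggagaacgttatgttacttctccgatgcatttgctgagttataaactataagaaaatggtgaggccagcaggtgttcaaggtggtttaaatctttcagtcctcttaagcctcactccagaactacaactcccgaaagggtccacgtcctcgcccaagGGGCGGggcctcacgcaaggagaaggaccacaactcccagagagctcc

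Together the 73 genes took about 1 percent of the counts of a library. The share was lowest in mature CD45KO replicate 1, at 0.89% (95% exact binomial interval 0.828% to 0.954%), and highest in lung control replicate 2, at 1.265% (1.19% to 1.34%). These intervals cover counting error only. At least 72 of the 73 genes had a count in every library. The genes that gave the most counts in their complexes were Ndufa3 in complex I, Sdha in complex II, Uqcrh in complex III, Cox7a2l in complex IV and Atp5b in complex V.

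The mean summed level of the 73 genes was highest in immature CD45KO cells after TMM scaling, though its libraries overlapped with both lung groups. By share of all counts this order did not hold. That share was 1.09% to 1.215% in immature CD45KO, 1.161% to 1.265% in lung control and 1.118% to 1.205% in lung CD45KO libraries. The summed level was 11809, 11180 and 12446 normalised CPM in the 3 immature CD45KO libraries and 10337, 9645 and 9629 in the immature controls. All 3 CD45KO libraries lay above all 3 controls, and the ratio of the means was 1.20 (11812 ± 633 against 9870 ± 404, SD, n = 3 each). The mature cells gave 11192, 9494 and 9885 in controls, against 9257, 11767 and 11772 in CD45KO. These overlapped, with a ratio of 1.07 and a log2 ratio of 0.10 that became 0.29 without mature control replicate 1 and mature CD45KO replicate 1. In lung the sums were 10945, 11777 and 10965 in controls and 11404, 11930 and 10970 in CD45KO. The lung groups overlapped with a ratio of 1.02, and the log2 ratio of 0.03 turned to -0.04 when libraries were scaled to total counts. No test was made of these sums. In bulk libraries, a change in the cells that make up a sample and a change in RNA per cell cannot be told apart.

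**Figure D1:**
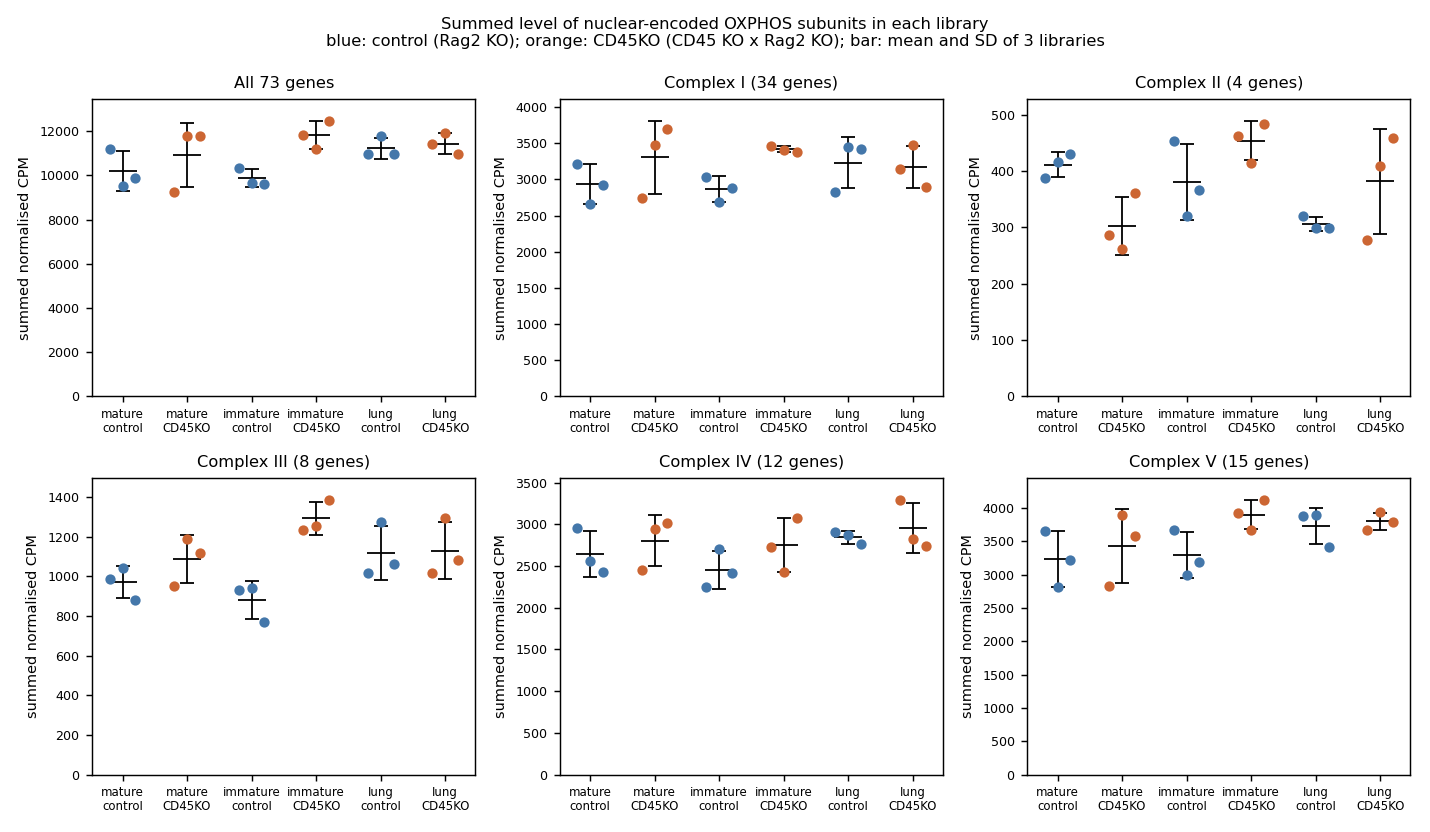
Summed normalised CPM (y axis) of all 73 genes and of each complex in the 6 groups (x axis), with 1 point per library and the mean and SD of 3 libraries. The 3 immature CD45KO libraries, at 11180 to 12446 for all genes, lie above the immature controls, and complex II is the only complex whose sum in mature CD45KO cells lies wholly below the mature controls.

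In immature ILC2, most subunit genes had higher mean levels in CD45KO than in control cells, but no single gene passed the test. Of the 48 tested genes, 39 had a positive log2 fold change, with a median of 0.25 against -0.01 over all 1916 genes (938 of them positive). Of the lists described below, 8 tested glycolytic genes had a median of 0.30, 7 of cytochrome c and carriers 0.305 and 3 regulators 0.72. The median was 0.10 for 5 genes of the tricarboxylic acid cycle and -0.05 for 79 of the cytosolic ribosome. Differences between these lists were not tested. The number past an adjusted p of 0.05 was 0 of 48, where 1.67% of all tested genes passed (quasi-likelihood test of edgeR, Benjamini-Hochberg adjusted over the whole table). At an unadjusted p below 0.05 the count was 3, and DESeq2's Wald test also passed 0, with 2 unadjusted. Scaling to total counts left 36 of the 48 positive with a median of 0.18, and the share of counts still did not overlap between the groups (0.934% to 1.067% in controls and 1.09% to 1.215% in CD45KO). The 25 genes too low to test summed to 1431 ± 105 normalised CPM in controls and 1741 ± 94.5 in CD45KO (SD, n = 3), a ratio of 1.22 without overlap. The ILC2 markers were lower in immature CD45KO cells, with sums of 6490, 7154 and 5992 normalised CPM in immature controls and 5076, 5374 and 4516 in CD45KO, without overlap. They overlapped in mature cells (5380 to 6426 and 4827 to 6827) and were wholly higher in CD45KO in lung (11070 to 11530 and 11750 to 13780). Their part in the sums of the subunit genes was not tested.

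Complex III had the largest ratio in immature cells. Its 8 genes summed to 929, 941 and 769 normalised CPM in controls and to 1232, 1255 and 1386 in CD45KO libraries. The ratio of the means was 1.47, against 1.19 for complex I, 1.20 for complex II, 1.12 for complex IV and 1.19 for complex V, and the groups did not overlap for complexes I and III. All 6 tested genes of complex III were positive, and 8 of the 48 tested genes had CD45KO libraries wholly above the controls while 0 lay wholly below, where 17.9% of all tested genes did not overlap in either direction. Besides Uqcrh, Atp5e, Uqcr10 and Uqcr11, these were Ndufa13, Ndufb11, Ndufv3 and Cox7b.

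Uqcrh encodes the hinge protein, an acidic subunit of complex III on the side that meets cytochrome c. Its level was 310, 351 and 330 normalised CPM in immature controls and 483, 502 and 494 in immature CD45KO libraries. The groups did not overlap (330 ± 21.0 and 493 ± 9.48, SD, n = 3). They rested on 28, 34 and 27 counts against 49, 58 and 47, so these SDs lie below counting error and do not measure precision. The log2 fold change was 0.57 ± 0.20 (SE) with an adjusted p of 0.151 by edgeR. Uqcrh overlaps a processed pseudogene on the opposite strand, and no strand setting is stated in the sources used here, so that reads of the pair cannot be told apart.

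Atp5e encodes the epsilon subunit of the central stalk of the ATP synthase. It had 276, 279 and 281 normalised CPM in immature controls and 424, 329 and 515 in CD45KO libraries. The controls were nearly equal, on 25, 27 and 23 counts, a spread below counting error. All CD45KO libraries were higher, with a log2 fold change of 0.58 ± 0.22 and an adjusted p of 0.188 by edgeR. The leading genes of the other complexes were Ndufv3, an accessory subunit beside the NADH-binding site of complex I (0.68 ± 0.38, adjusted p = 0.467 by edgeR), and Cox7b of complex IV (0.47 ± 0.28, adjusted p = 0.509 by edgeR). None of these values passed the threshold.

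In mature ILC2 the differences between CD45KO and control were, with all libraries, smaller for the set and larger for a few genes. Without mature control replicate 1 and mature CD45KO replicate 1 the log2 ratio of the summed levels was 0.29 in mature cells. That in immature cells, with all libraries, was 0.26, so the order of the 2 stages rested on these 2 libraries. Of the 48 genes, 30 were positive with a median log2 fold change of 0.15, against 0.00 over all genes. The test passed 0 of 48 genes, where 0.261% of all tested genes passed. At an unadjusted p below 0.05 there were 4 genes (Cox5b, Ndufa7, Ndufa3 and Atp5c1, all higher), and DESeq2 passed 0 with 2 unadjusted. Libraries did not overlap for 3 higher genes (Ndufa7, Atp5c1 and Cox7c) and 1 lower (Uqcrb), where 12.8% of all tested genes did not overlap.

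Cox5b, a zinc-binding peripheral subunit of cytochrome c oxidase, had 74.5, 69.4 and 130 normalised CPM in mature controls, against 119, 227 and 211 in mature CD45KO libraries. CD45KO replicate 1 fell within the controls. The log2 fold change was 0.99 ± 0.35 with an adjusted p of 0.282 by edgeR. Ndufa7, an accessory subunit of the matrix arm of complex I, had 74.5, 111 and 70.2 in controls and 143, 135 and 202 in CD45KO. These groups did not overlap (log2 fold change 0.93 ± 0.36, adjusted p = 0.366 by edgeR).

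In lung ILC2 the subunit genes were divided in direction. Of the 48 genes 27 were positive with a median of 0.06, which turned to -0.01 with 23 positive when libraries were scaled to total counts. The test passed 0 of 48 genes, where 2.51% of all tested genes passed. There were 2 genes at an unadjusted p below 0.05, and DESeq2 passed 0 with 0 unadjusted. Libraries did not overlap for 3 higher genes (Ndufb4, Cox8a and Uqcrc2) and 1 lower (Uqcr10), where 19.7% of all tested genes did not overlap.

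Uqcr10, a small accessory subunit of complex III, had the smallest p in lung. It had 88.2, 203 and 141 normalised CPM in lung controls and 69.5, 83.8 and 54.0 in lung CD45KO libraries. Every CD45KO library was below every control in lung, while in immature cells every CD45KO library (128, 130 and 147) was above every control (99.5, 72.4 and 97.6). The log2 fold changes were -1.01 ± 0.40 in lung and 0.59 ± 0.38 in immature cells. The test of the difference between these 2 CD45 effects gave -1.597 ± 0.55 with an unadjusted p of 0.00479 and an adjusted p of 0.153 by edgeR, which missed the threshold. Ndufb4, an accessory subunit of the membrane arm of complex I, went the other way in lung, from 44.1, 53.5 and 70.3 in controls to 97.3, 102 and 148 in CD45KO. Its log2 fold change was 0.99 ± 0.45 with an adjusted p of 0.262 by edgeR.

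**Figure D2:**
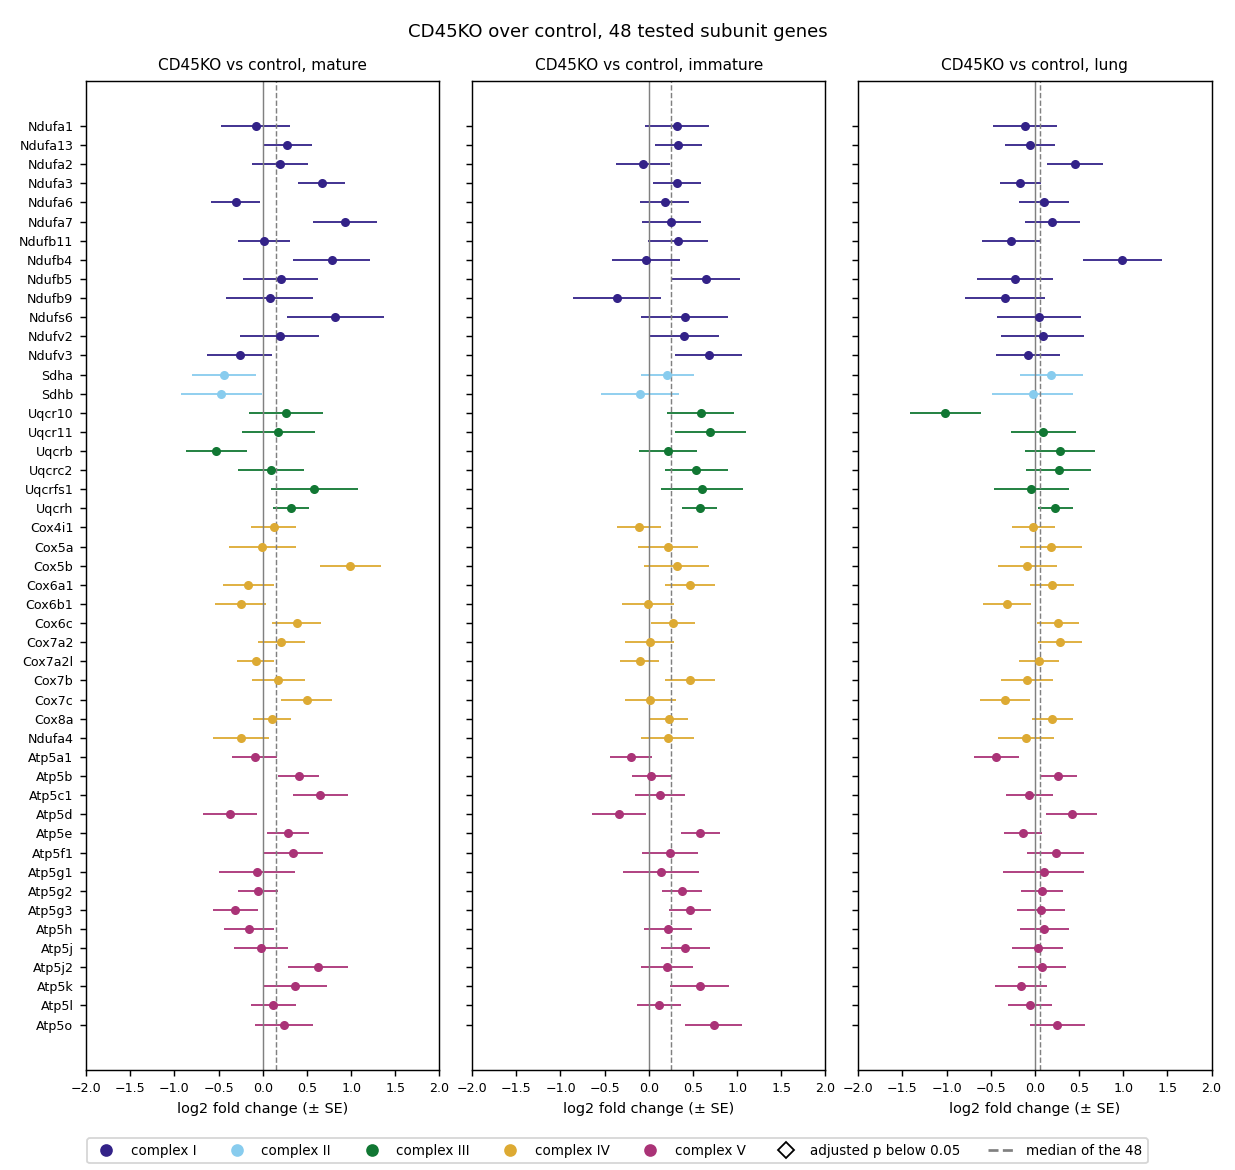
Log2 fold change of CD45KO over control (x axis, bars are SE) for the 48 tested genes (y axis, ordered by complex) in mature, immature and lung ILC2, with the dashed line at the median. None of the points passed the threshold, and the dashed line lies farthest from 0 in immature cells, at 0.25.

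The CD45 effect was also compared between populations in the same fit. The difference passed for 0 of 48 genes between lung and mature cells (0.313% of all tested genes passed, and 4 subunit genes had an unadjusted p below 0.05), for 0 between lung and immature cells (0.365%, 2 unadjusted) and for 0 between mature and immature cells (0% and 1 unadjusted). DESeq2 also passed 0 in each. The standard error of a single CD45 effect had a median of 0.31 in mature, 0.30 in immature and 0.29 in lung cells. The 95% interval stayed within a 2-fold change in either direction (log2 of 1) for 29, 30 and 39 of the 48 genes. For the others the interval did not exclude a 2-fold difference.

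Between tissues, a few subunit genes were higher in lung than in bone marrow control cells. In lung against mature controls 4 of 48 genes passed, all higher (Ndufa3, Atp5j2, Atp5k and Atp5c1), where 25.6% of all tested genes passed. In lung against immature controls 2 passed, both higher (Ndufa3 and Atp5k), where 25.5% of all tested genes passed. The first count was 1 without mature control replicate 3 or lung control replicate 2 and 2 without lung control replicate 3, and the second was 1 without lung control replicate 1, 2 or 3. Both comparisons share the lung control libraries. The shares of the subunit genes that passed were thus below that of all genes. The median log2 fold changes were 0.16 and 0.18 (30 and 35 of 48 positive) against -0.03 and -0.02 over all genes (-0.026 and -0.025), and scaling to total counts moved the first pair to 0.32 and 0.12. The summed level of all 73 genes in lung controls lay above every immature control (ratio 1.14) and overlapped with mature controls (ratio 1.10), and the sum of the 25 untested genes had a ratio of 1.06 to immature and of 1 to mature controls. Libraries did not overlap for 6 higher and 2 lower genes against mature controls (37.8% of all tested genes) and for 4 higher and 1 lower against immature controls (38.4%).

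Ndufa3 encodes an accessory subunit of the membrane arm of complex I (chromosome 7, 3617373 to 3620327, plus strand). It had 328, 250 and 180 normalised CPM in mature controls, 276, 227 and 232 in immature controls and 265, 620 and 475 in lung controls. Lung control replicate 1 lay within the marrow values, and the other 2 lung libraries were above all of them. The log2 fold change was 0.90 ± 0.26 against mature and 0.89 ± 0.25 against immature controls, with adjusted p of 0.00567 and 0.00437 by edgeR. The call against mature controls was lost without lung control replicate 2 (0.65, adjusted p = 0.107 by edgeR) or mature control replicate 3 (0.66, adjusted p = 0.102 by edgeR) and with DESeq2 (0.87, adjusted p = 0.0535). That against immature controls was lost without lung control replicate 2 (0.64, adjusted p = 0.0991 by edgeR). Ndufa3 overlaps the end of Tfpt on the opposite strand, for which 27 counts were found over all libraries against 584 for Ndufa3.

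Atp5k encodes subunit e, a small membrane subunit at which ATP synthase dimers form (chromosome 5, 108433244 to 108434448, minus strand). It had 74.5, 139 and 130 normalised CPM in mature controls, 133, 103 and 146 in immature controls and 231, 225 and 237 in lung controls. The lung controls lay above every marrow control and were nearly equal, on 21, 21 and 27 counts, a spread below counting error. The log2 fold changes were 0.98 ± 0.34 and 0.87 ± 0.32, with adjusted p of 0.0230 against mature and 0.0365 against immature controls by edgeR. Against mature controls the call was lost without mature control replicate 1, the library with S100a8 and S100a9 counts (0.79, adjusted p = 0.117 by edgeR), or without lung control replicate 3 (0.97, adjusted p = 0.0556 by edgeR). Against immature controls it was lost without immature control replicate 1 or 2 (adjusted p = 0.0673 and 0.145 by edgeR) and without lung control replicate 1, 2 or 3 (adjusted p = 0.0634, 0.0577 and 0.0822 by edgeR), at log2 fold changes of 0.73 to 0.91. Against mature controls it was also lost in 2 of the other alternatives, with DESeq2 among them (adjusted p = 0.101). Against immature controls it was also lost with DESeq2 (adjusted p = 0.144). In lung CD45KO libraries Atp5k ranged from 94.5 to 298.

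Atp5j2 encodes subunit f, another small membrane subunit (chromosome 5, 145183698 to 145192062, minus strand). It had 89.4, 208 and 80.2 normalised CPM in mature controls and 287, 299 and 176 in lung controls. The groups overlapped through mature control replicate 2 and lung control replicate 3. The log2 fold change was 1.03 ± 0.33 with an adjusted p of 0.0128 by edgeR. The call was lost without mature control replicate 1 or 3 (0.88 and 0.72, adjusted p = 0.0689 and 0.172 by edgeR) and without lung control replicate 1 or 2 (0.94 and 0.90, adjusted p = 0.0535 and 0.0700 by edgeR). It was also lost in 2 of the other alternatives, with DESeq2 among them (adjusted p = 0.0616). Without mature control replicate 2 the log2 fold change was 1.56 (adjusted p = 0.00148 by edgeR).

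Atp5c1 encodes the gamma subunit, the shaft that turns inside the catalytic head (chromosome 2, 10056016 to 10080510, minus strand). It had 164, 97.2 and 160 normalised CPM in mature controls and 231, 278 and 246 in lung controls. These groups did not overlap, and the log2 fold change was 0.82 ± 0.30 with an adjusted p of 0.0355 by edgeR. The call was lost without mature control replicate 2 or 3 (0.64 and 0.95, adjusted p = 0.179 and 0.0575 by edgeR) and without lung control replicate 2 or 3 (0.76 and 0.86, adjusted p = 0.102 and 0.0597 by edgeR). It was also lost in 2 of the other alternatives, with DESeq2 among them (adjusted p = 0.124). The catalytic beta subunit, Atp5b, had a log2 fold change of 0.44 ± 0.23 in the same comparison (adjusted p = 0.164 by edgeR), and the catalytic alpha subunit, Atp5a1, ranged over 167 to 358 in mature and 289 to 397 in lung controls.

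**Figure D3:**
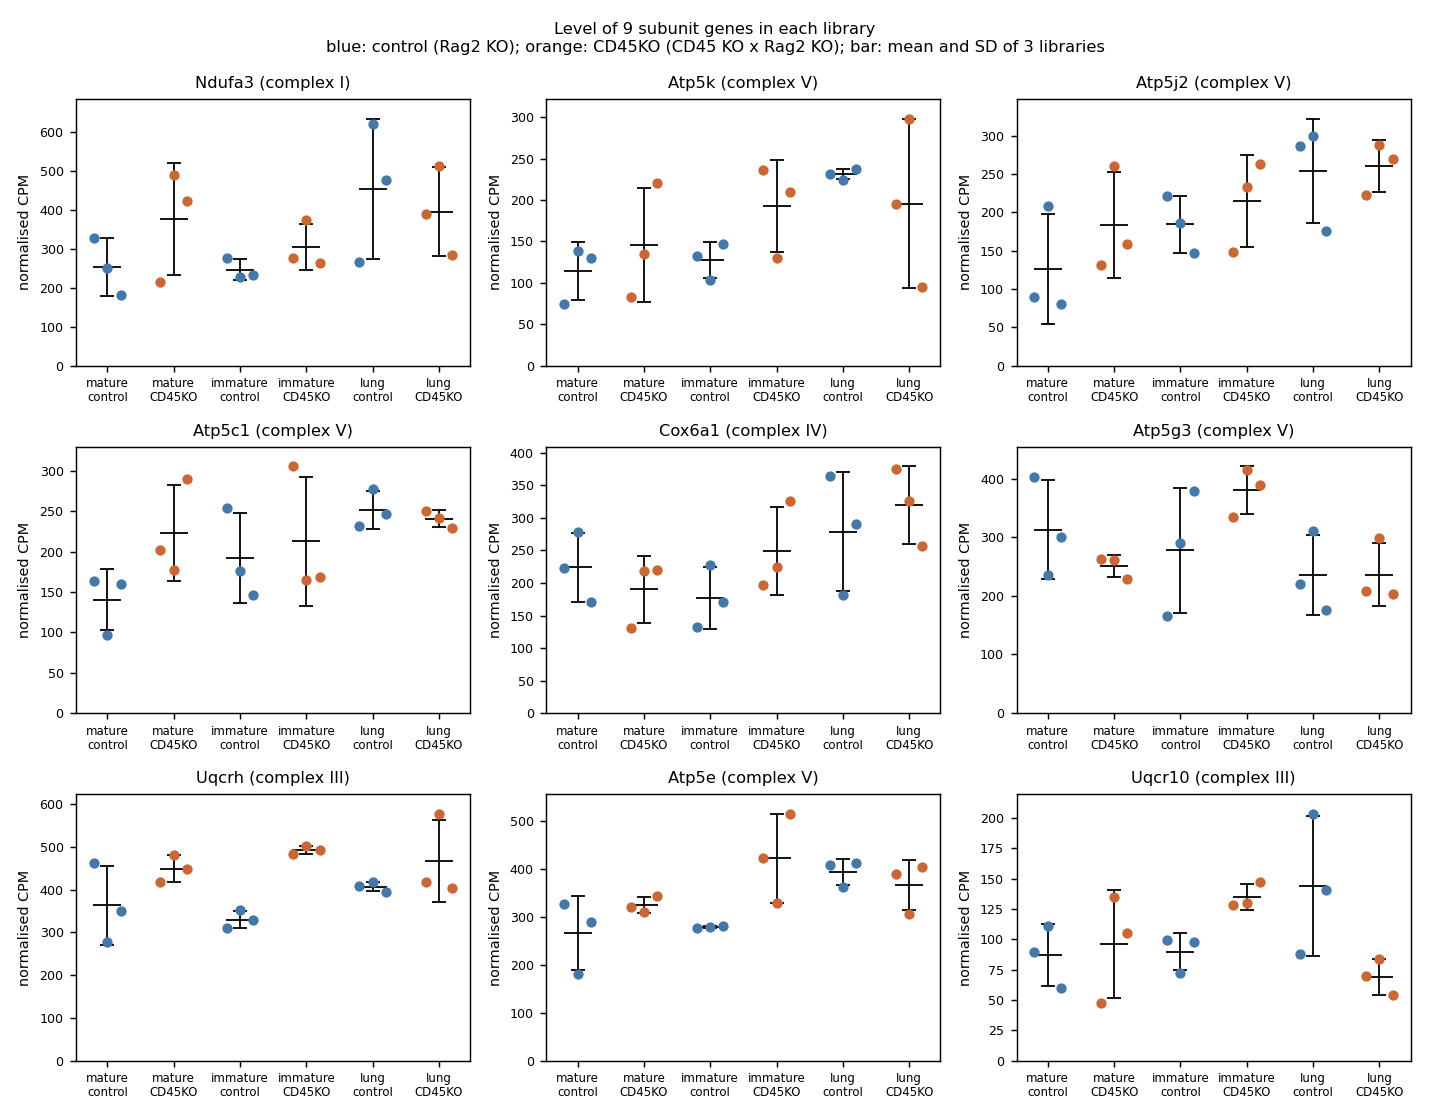
Normalised CPM (y axis) of 9 subunit genes in each library of the 6 groups (x axis), with mean and SD of 3 libraries. Atp5k lies at 225 to 237 in the lung controls, above every marrow control, whereas the lung controls of Ndufa3 spread from 265 to 620.

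In CD45KO cells the same tissue comparisons gave other genes. Against mature CD45KO cells 1 of 48 genes passed, Cox6a1, which was higher in lung, where 24.3% of all tested genes passed. Against immature CD45KO cells 1 passed, Atp5g3, which was lower in lung, where 25.3% of all tested genes passed. These counts became 3 without mature CD45KO replicate 2 and 2 without immature CD45KO replicate 1, and 0 without the libraries named with each gene below. No subunit gene passed in both genotypes (0 shared for mature and 0 for immature), while 311 genes of the whole table passed in both genotypes against mature cells (63.3% of those in controls, 66.7% of those in CD45KO). A pass in one genotype and not in the other is no test of a difference between them. That test, the difference of CD45 effects above, passed for none of the 48. Median log2 fold changes were 0.09 against mature and -0.04 against immature CD45KO cells, the latter 0.05 with total counts. Libraries did not overlap for 4 higher and 0 lower genes against mature cells (35.2% of all tested genes) and for 3 higher and 2 lower against immature cells (37.0%).

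Cox6a1 encodes the subunit VIa isoform found outside heart and skeletal muscle (chromosome 5, 115345642 to 115348981, minus strand), and its muscle counterpart Cox6a2 had no count. It had 131, 219 and 220 normalised CPM in mature CD45KO and 375, 326 and 256 in lung CD45KO libraries. The groups did not overlap, and the log2 fold change was 0.71 ± 0.27 with an adjusted p of 0.0393 by edgeR. The call was lost without mature CD45KO replicate 1, the library that stood apart (0.56, adjusted p = 0.155 by edgeR), and without lung CD45KO replicate 1 or 2 (0.63 and 0.70, adjusted p = 0.147 and 0.106 by edgeR). It was also lost in a fit of only these 6 libraries (adjusted p = 0.0607 by edgeR), without a filter on low counts (0.132) and with DESeq2 (adjusted p = 0.118). Leaving out both mature replicate 1 libraries ended it as well. In controls the lung and mature values were 364, 182 and 290 against 224, 278 and 170.

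Atp5g1, Atp5g2 and Atp5g3 encode the same mature subunit c, which forms the rotor ring, with different import sequences, and reads may be split between them. Atp5g3 (chromosome 2, 73908447 to 73911326, minus strand) had 335, 415 and 389 normalised CPM in immature CD45KO and 209, 298 and 202 in lung CD45KO libraries. The groups did not overlap, and the log2 fold change was -0.64 ± 0.24 with an adjusted p of 0.0423 by edgeR. The call was lost without immature CD45KO replicate 2 or 3 (-0.55 and -0.62, adjusted p = 0.169 and 0.0972 by edgeR), without lung CD45KO replicate 1 or 3 (-0.53 and -0.51, adjusted p = 0.184 and 0.196 by edgeR) and in 6 of the other alternatives, with DESeq2 among them (adjusted p = 0.180). In the same comparison Atp5g2 was at -0.29 ± 0.23 and Atp5g1 at -0.12 ± 0.44, neither past the threshold.

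**Figure D4:**
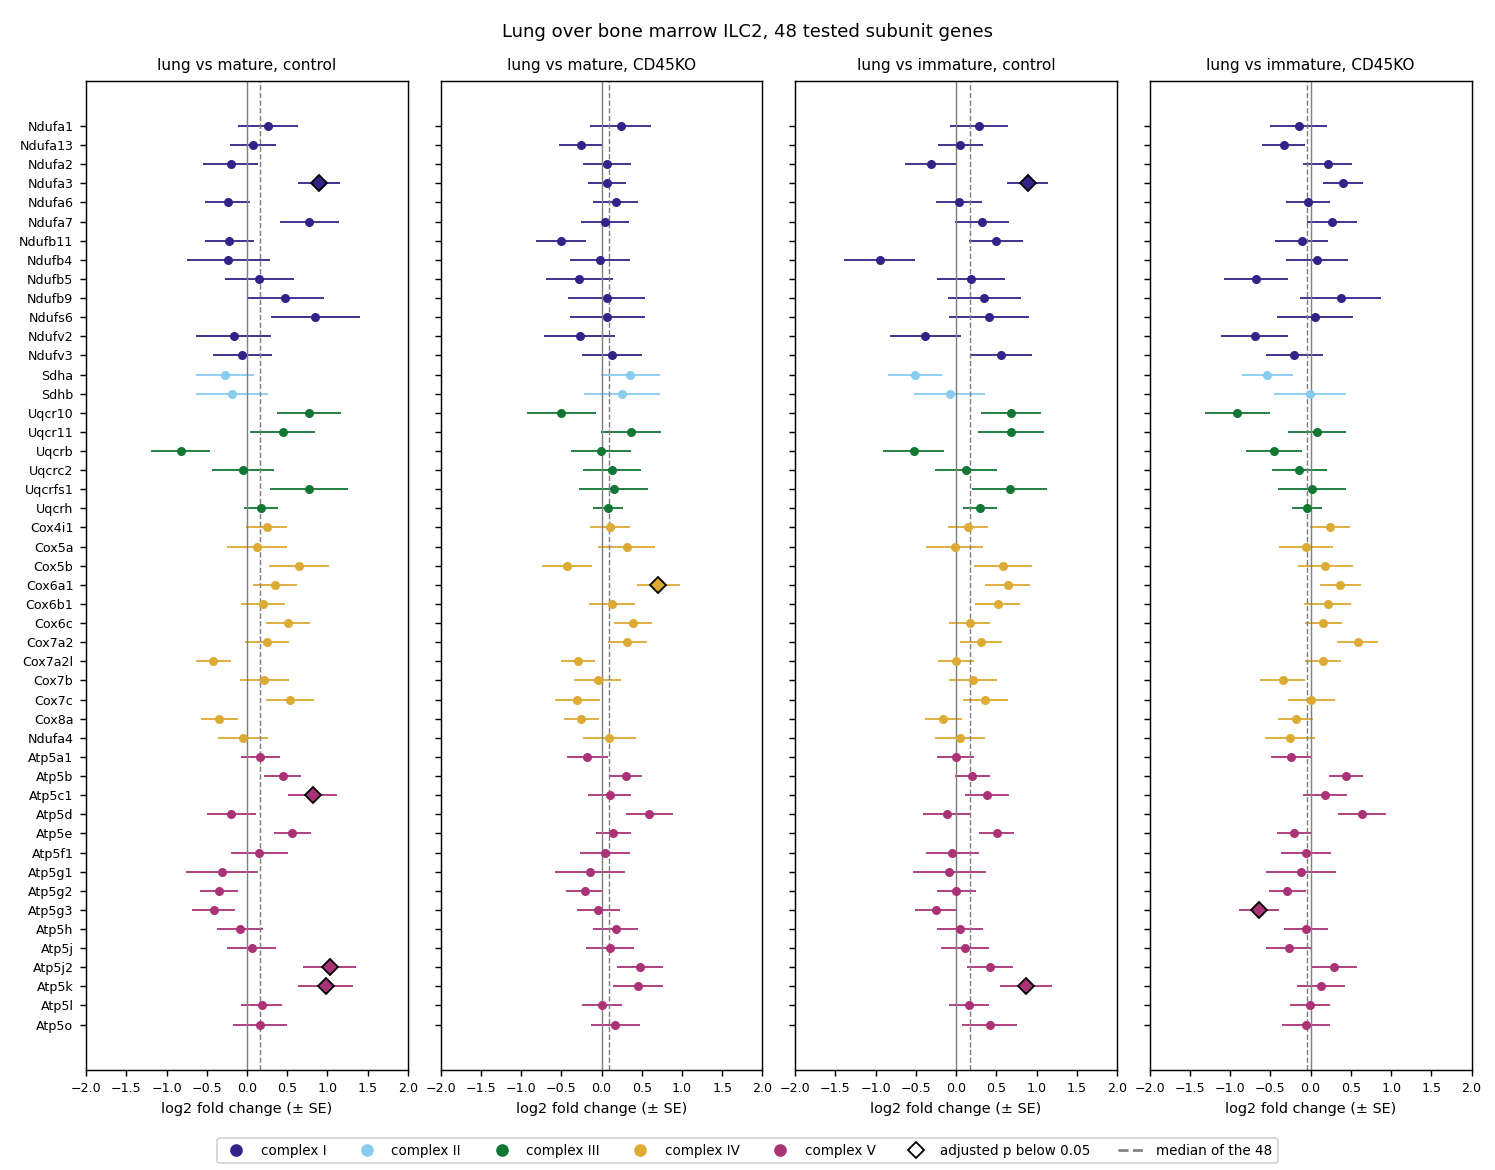
Log2 fold change of lung over mature or immature bone marrow ILC2 (x axis, bars are SE) in controls and in CD45KO cells for the 48 tested genes (y axis, ordered by complex), with diamonds for an adjusted p below 0.05 and a dashed line at the median. Diamonds stand at Ndufa3, Atp5c1, Atp5j2 and Atp5k in lung against mature controls, and at Ndufa3 and Atp5k in lung against immature controls, with 1 each in CD45KO cells.

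Between the 2 stages of bone marrow ILC2 no subunit gene passed the test. Mature against immature cells passed for 0 of 48 genes in controls (0.0522% of all tested genes, 1 subunit gene unadjusted) and for 0 of 48 in CD45KO (0.678%, 4 unadjusted). DESeq2 also passed 0 in both, with 0 and 2 unadjusted. In controls 3 genes lay wholly higher in mature cells (Ndufb11, Ndufv3 and Cox7a2l) and 0 wholly lower, where 10.2% of all tested genes did not overlap. In CD45KO cells 2 lay wholly higher (Ndufb11 and Cox7a2l) and 3 wholly lower (Sdha, Uqcrh and Atp5g3), where 12.6% did not overlap. Ndufb11, an accessory subunit of the membrane arm of complex I, had 164, 208 and 180 normalised CPM in mature controls and 99.5, 114 and 122 in immature controls (log2 fold change 0.72 ± 0.34, adjusted p = 0.858 by edgeR). Over all 6 groups at once only Ndufa3 passed (adjusted p = 0.00528 by edgeR), 1 of 48 genes, where 35.0% of all tested genes passed. The count over all groups rose to between 2 and 4 when any 1 of 15 libraries was left out, stayed at 1 without mature control replicate 3, immature control replicate 3 or lung control replicate 1, and fell to 0 with DESeq2's likelihood ratio test.

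Complex II, succinate dehydrogenase, is shared with the tricarboxylic acid cycle, and its sum was lower in mature CD45KO cells than in mature controls. Its 4 genes summed to 387, 416 and 431 normalised CPM in mature controls and to 286, 261 and 361 in mature CD45KO libraries. The groups did not overlap, with a ratio of 0.735. In lung controls the sum was 320, 299 and 299, below all mature controls (ratio 0.743) and just below the lowest immature control, at 320.47 (ratio 0.805). Mature CD45KO cells were also wholly below immature CD45KO cells, at 463, 415 and 483 (ratio 0.667). The CD45 ratio of complex II was above 1 in the other populations, where the groups overlapped. In lung it was 1.25, with 278, 409 and 459 in CD45KO libraries, and in immature cells it was 1.20. By gene, the flavoprotein Sdha had 134, 97.2 and 170 in mature controls, against 95.3, 84.2 and 123 in mature CD45KO libraries, which overlap (log2 fold change -0.44 ± 0.36, adjusted p = 0.780 by edgeR). The iron-sulfur subunit Sdhb was at -0.47 ± 0.46 (adjusted p = 0.822 by edgeR). The membrane anchors Sdhc and Sdhd were too low to test. Sdhd did not share the lower level, with 59.6, 97.2 and 70.2 in mature controls against 95.3, 67.4 and 61.6 in mature CD45KO libraries. Its means were 75.6 and 74.8. Sdhc had 104, 111 and 100.2 in mature controls, against 47.6, 50.5 and 79.2 in mature CD45KO libraries, with no overlap. Of all tested genes 12.8% did not overlap in this comparison. The values of complex II rest on few counts. Before scaling, Sdhc had 7, 8 and 10 counts in mature controls and 4, 6 and 9 in mature CD45KO libraries, which overlap. Sdha had 9, 7 and 17 counts against 8, 10 and 14.

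Isoforms restricted to certain tissues were at or near 0 in ILC2. Cox7a1, a muscle isoform, and Cox4i2 had 1 count each, and the muscle isoforms Cox6a2 and Cox8b had 0, whereas Cox7a2, Cox4i1, Cox6a1 and Cox8a had 395, 445, 403 and 594 counts over the 18 libraries. Cox7a2, Cox4i1 and Cox8a did not pass in any of the comparisons. Cox7a2l, which helps complexes III and IV join into supercomplexes, had 566, 416 and 411 normalised CPM in mature controls and 353, 321 and 352 in lung controls. These did not overlap, but the log2 fold change of -0.42 ± 0.22 did not pass (adjusted p = 0.153 by edgeR), and in CD45KO cells it was -0.29 ± 0.21.

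Among nuclear partners of the complexes outside the symbol rule, Usmg5 showed the widest tissue difference. It encodes DAPIT, a small membrane subunit of the ATP synthase. Of 4 listed genes outside the rule (Usmg5, Cyc1, Ndufab1 and Atpif1) it was the only 1 that could be tested. It had 104, 27.8 and 60.2 normalised CPM in mature controls, 166, 82.7 and 134 in immature controls and 276, 492 and 325 in lung controls. In CD45KO cells it had 71.5, 126 and 106 in mature, 78.9, 121 and 189 in immature and 375, 493 and 135 in lung libraries. The lung libraries were above the marrow libraries of their genotype except for lung CD45KO replicate 3, which lay within the immature values. The log2 fold change was 2.50 ± 0.38 against mature and 1.51 ± 0.31 against immature controls, and 1.74 ± 0.32 and 1.44 ± 0.31 in CD45KO cells, with adjusted p of 6.25e-08, 6.71e-05, 7.03e-06 and 0.000108 by edgeR. No alternative or left-out library ended any of these 4 calls, and the highest adjusted p over them was 0.0457.

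Of 11 genes for cytochrome c and carriers of the inner membrane, 7 could be tested. In lung 3 were higher than in mature controls (Slc25a3, Cycs and Etfb), 2 than in immature controls (Slc25a3 and Cycs) and 1 in each CD45KO comparison (Slc25a3). Of all tested genes 25.6% and 25.5% passed against mature and immature controls, and 24.3% and 25.3% in the CD45KO comparisons. For CD45 in lung 2.51% passed. Slc25a3, the phosphate carrier that supplies the ATP synthase, had 313, 305 and 371 normalised CPM in mature controls, 562, 663 and 536 in lung controls and 960, 828 and 891 in lung CD45KO libraries. It was the only carrier that passed for CD45, in lung (0.60 ± 0.17, adjusted p = 0.0302 by edgeR), and this call was lost without lung control replicate 1 or 3 (adjusted p = 0.0990 and 0.177 by edgeR), lung CD45KO replicate 1 or 3 (adjusted p = 0.108 and 0.0718 by edgeR). It was also lost with total counts (0.0801), in a fit of only the lung libraries (0.0544) and without a filter on low counts (0.248). The Slc25a3 call against immature controls was lost without lung control replicate 2 (adjusted p = 0.0610 by edgeR) and with DESeq2 (adjusted p = 0.0515). Cycs, cytochrome c, was at 1.29 ± 0.37 in lung against mature and 1.87 ± 0.39 against immature controls (adjusted p = 0.00460 and 7.31e-05 by edgeR). The first of these was lost without mature control replicate 2 or 3 or lung control replicate 3 (adjusted p = 0.0519, 0.0675 and 0.0661 by edgeR), and its fold change was 1.96 without mature control replicate 1. Etfb, a subunit of the flavoprotein that feeds electrons from fatty acids into the chain, was at 1.55 ± 0.57 in lung against mature controls (adjusted p = 0.0349 by edgeR). The Etfb call was lost without mature control replicate 2 or 3 (1.22 and 0.97, adjusted p = 0.15 and 0.278 by edgeR), without lung control replicate 1 or 3 (1.52 and 1.35, adjusted p = 0.0651 and 0.140 by edgeR) and with DESeq2 (adjusted p = 0.112). Without mature control replicate 1 its log2 fold change was 3.15 (adjusted p = 0.00145 by edgeR).

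Of 49 assembly factors none had enough counts to test. Of 17 genes of the tricarboxylic acid cycle 5 could be tested and 0 passed in any of these comparisons. Of 14 regulators of mitochondrial genes 3 could be tested, and Yy1 was lower in lung than in mature (-1.28 ± 0.43, adjusted p = 0.0194 by edgeR) and immature CD45KO cells (-1.45 ± 0.42, adjusted p = 0.00514 by edgeR). Both Yy1 calls were lost without lung CD45KO replicate 2 (adjusted p = 0.122 and 0.0556 by edgeR), and the first also without replicate 1 (0.0588), without a filter on low counts (0.0814) and with DESeq2 (0.0921). Myc was higher in lung than in mature CD45KO cells (1.19 ± 0.41, adjusted p = 0.0232 by edgeR), a call lost without mature CD45KO replicate 2 or lung CD45KO replicate 2 (adjusted p = 0.136 and 0.108 by edgeR), without a filter on low counts (0.0744) and with DESeq2 (0.0856). Nrf1, Gabpa and Tfam were too low to test, and Ppargc1a had 0 counts. Among 8 tested glycolytic genes of 21, Ldha, which makes lactate, was the only 1 that passed for CD45. In lung it rose from 540, 556 and 563 normalised CPM in controls to 821, 996 and 904 in CD45KO (0.72 ± 0.17, adjusted p = 0.00451 by edgeR, or 0.0765 without lung CD45KO replicate 2). Of all tested genes 2.51% passed in this comparison. The 8 tested glycolytic genes had a median of 0.23 there, with 7 positive, and the subunit genes a median of 0.06. For CD45 in immature cells the glycolytic median was 0.30, with 6 positive, and the subunit median 0.25. In mature cells these medians were -0.07, with 3 positive, and 0.15. A difference between these 2 sets was not tested.

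Genes of the cytosolic ribosome were lower in lung than in bone marrow controls. They summed to 177199 to 199067 normalised CPM in lung controls and to 211695 to 250647 in bone marrow controls, without overlap. Of 79 tested ribosomal protein genes 41 were lower in lung against mature controls (25.6% of all tested genes passed in either direction) and 32 against immature controls (25.5%). In CD45KO cells the sums were 217896 to 222876 in lung, within the 195450 to 242693 of the marrow libraries, with 2 genes lower against mature (24.3%) and 1 higher against immature cells (25.3%). For CD45 in lung 6 of the 79 passed, all higher (2.51%). In that comparison 53 of the 79 had CD45KO libraries wholly above the controls, where 19.7% of all tested genes did not overlap in either direction. Without TMM scaling, their share of all counts was 19.38% to 21.39% in lung controls, 21.61% to 24.03% in marrow controls and 22.36% to 23.02% in lung CD45KO libraries, with the lung controls below the other 2 sets. Their part in the levels of the subunit genes was not tested, other than by the scaling to total counts given above.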

How the data were processed

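Per the labels' protocols, ERCC RNA was added, lysates were reverse transcribed with a barcoded oligo-dT primer, and cDNA was amplified by PCR. The labels give both 200 and 100 cells per sample, and these sources do not settle which applies. STAR and mm10 are named in the submitters' processing notes, without versions. The counting tool, annotation, strand setting and collapsing by barcode are not stated in these sources. The authors deposited whole-number counts per gene symbol, without scaling. The table holds 0 ERCC and 0 mitochondrial-DNA entries among those analysed here, and every column was used.

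Counts were scaled with TMM, filtered with filterByExpr by group (minimum count 10) and fitted with edgeR 4.0.16 (R 4.3.3) as 6 group means over 18 libraries. Each contrast was tested with the quasi-likelihood test and adjusted by Benjamini-Hochberg over 1916 genes, with a threshold of 0.05. Standard errors were computed as the absolute log2 fold change over the square root of F. The genes described and the other pathway and marker lists were chosen with earlier results of these data known, and the count of a list is a description. Named were all genes of the set that passed, the most counted gene and the smallest p for CD45 in each complex, Sdh genes and isoform sets, and up to 3 passing genes of each other list in a comparison, of which a part is given. Gene positions came from GENCODE M21 and promoters from RefSeq (GRCm38.p6). Of the 73 genes 35 overlap another gene, and small subunits have many processed pseudogenes, so single values are uncertain to that extent. Alternatives were DESeq2 1.42.0 (size factors, Wald and likelihood ratio tests), total counts, other filters, fits of only the compared libraries, a replicate block, fits without Rn45s and Rn4.5s, and leaving out each library. The steps were tested on simulated data.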

Additional observations from a re-analysis of the deposited data

How the results depend on the processing

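In all, 63 values were recomputed, each under the alternatives that applied to it, which gave 894 recomputed values. Of these, 769 counted as the same, 88 lost the threshold, 36 moved and 1 reversed. For a gene, the same meant an unchanged direction and side of the threshold, and for a count a value within 1.5 times. For a summed level it meant a log2 ratio within the SD between libraries, whatever its sign. Reversals were counted for genes only. The log2 ratio of the sums in mature against immature controls, for example, was 0.046 and reached -0.022 with 1 library left out, which counted as the same. The counts of 0 for CD45 and for differences of CD45 effects stayed 0 in every alternative. With DESeq2 the genes of the set that passed were 0 in lung against mature controls, 1 in lung against immature controls, 0 in lung against mature and 0 against immature CD45KO cells, and 0 over all groups. With total counts they were 4 in lung against immature controls and 6 over all groups. The 1 call in lung against mature CD45KO cells became 0 without a filter on low counts, in a fit of only the compared libraries and without both mature replicate 1 libraries. That against immature CD45KO cells became 0 with DESeq2 size factors, without a filter, with at least 10 counts in 3 libraries and without Rn45s and Rn4.5s. Over all groups the count became 3 without a filter, 3 with at least 10 counts in 3 libraries, 5 without Rn45s and Rn4.5s and 5 without both mature replicate 1 libraries. Leaving out 1 library at a time gave 1 to 4 over all groups, 1 to 3 for lung against mature controls, 1 to 2 against immature controls, 0 to 3 against mature CD45KO and 0 to 2 against immature CD45KO cells. For Sdha and CD45 in lung (0.19) it gave -0.016 without lung CD45KO replicate 3, a reversal, in a range up to 0.508.

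The log2 ratio of the summed level for CD45 in mature cells was 0.29 without both mature replicate 1 libraries. With total counts the log2 ratios were 0.19 for CD45 in immature and -0.041 in lung cells, 0.30 for lung against mature controls, 0.28 against immature controls and 0.051 against immature CD45KO cells.

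Libraries with the same replicate number did not deviate together (45 correlations of -0.12 to 0.13, median 0.00, and 12 of 45 highest with their own number). With the replicate number as a block the pairing changed no count of passing genes (0, 0 and 0 for CD45, 4 and 2 for lung against mature and immature controls). At 68077 to 122250 counts per library, most genes of complex I were below the count needed for a test.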
